A study of Xenopus tropicalis with 31 samples.

Results

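The genes described here are the forkhead (fox) family of *Xenopus tropicalis*: the protein-coding RefSeq genes of chromosomes 1 to 10 of UCB_Xtro_10.0 whose symbol is fox followed by a letter and a number, with foxi1 and foxa1 left out. This rule gave 42 of 21749 genes. The study mapped Foxi2 and Sox3, maternal transcription factors of the ectoderm, together with the coactivator Ep300 (P300) and the histone marks H3K27ac and H3K27me3, by ChIP-seq, and deposited 1 list of peaks or regions for each of 16 groups. Foxi2 and Sox3 were profiled in wild-type embryos at stages 8, 9 and 10.5, that is, from blastula to early gastrula. Ep300 was profiled at stage 10.5 in dissected ectoderm and endoderm, in 2 sets of samples. The set called the first experiment here holds wild-type tissue alone, with 1 sample per tissue. The set called the second experiment holds wild-type tissue and that of FS morphants, with 2 samples per group. FS morphants are embryos injected with translation-blocking morpholinos against both foxi2 and sox3. The sample labels do not name these sets or give their order. H3K27ac (1 sample per tissue) and H3K27me3 (2 samples per tissue) were profiled in wild-type ectoderm and endoderm of the same stage. A morpholino lowers the new protein made from an mRNA and leaves the gene in place, so the morphants model reduced factor, not its absence. Because each group has a single list, with any replicates already combined, no test across samples was possible. Counts by gene with the 20 kb window and the full lists are set below beside the same count over all 21749 genes.

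Forkhead proteins bind DNA through a winged-helix domain, and several of them can bind closed chromatin and open it for other factors. In early embryos the family sets up germ layers and their derivatives: Foxa proteins act in axial mesoderm and endoderm, Foxh1 carries Nodal signals to its targets, Foxi proteins act in epidermis and placodes, Foxj1 in ciliated cells, Foxb and Foxd proteins in the neural plate and brain, and Foxc, Foxf and Foxl1 in mesoderm and mesenchyme. Foxi2 is itself a member, so the lists describe both what lies around the gene of the binding factor and what it binds around its relatives. H3K27ac marks active promoters and enhancers, Ep300 is an enzyme that deposits it, and H3K27me3 is the Polycomb mark of silenced developmental genes.

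Each gene was given a window of its annotated bounds plus 20 kb on each side, and a peak counted when it shared at least 1 base with that window. Forkhead genes were compact, with a median span of 5628 bp against 15506 bp for all genes and a range from 1518 bp (foxd4l1.2) to 544572 bp (foxp1). Several members are neighbours. The windows of foxi4.1 and foxi4.2, of foxd4l1.1 and foxd4l1.2, of foxc2 and foxl1 and of foxe3 and foxd2 overlap, so that the 42 genes make up 38 separate loci and a peak between a pair is counted for both genes. The reference used here gives no strand, exons or sequence, so a position is given relative to gene bounds and not to a start site.

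Foxi2 peaks were frequent near forkhead genes at all 3 stages. At stage 8, 28 of the 42 genes (66.7%, Wilson 95% interval 51.6 to 79.0%) had a Foxi2 peak in their window, against 36.7% of all genes. At stage 9 the count was 22 (52.4%, 37.7 to 66.6%) against 23.4%, and at stage 10.5 it was 24 (57.1%, 42.2 to 70.9%) against 20.6%. These intervals, here and below, cover counting error only. The members' share was above the share of all genes at each stage although the lists themselves shortened, from 13158 to 6668 and then 6039 peaks. With the 3 lists cut to equal length the counts were 18, 20 and 24, so the stage 8 count was then the lowest and not the highest. The shares of all genes were not computed for the cut lists, so these counts have no background. Genes of at most 10 kb, a set closer to the forkhead genes in span, had lower shares still, of 26.2%, 16.8% and 14.1%.

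Sox3 peaks gave another order. At stage 8 only 7 members (16.7%, 8.32 to 30.6%) had a Sox3 peak, against 22.9% of all genes. This was the only list in which the members' share of peaks was below that of all genes, but the interval includes 22.9%, and among genes of at most 10 kb the share was 16.1%, no longer above that of the members. At stage 9 the count was 18 (42.9%, 29.1 to 57.8%) against 16.7%, and at stage 10.5 it was 24 (57.1%, 42.2 to 70.9%) against 43.8%, in a list of 14648 peaks. The stage 8 Sox3 peaks stood apart from the later ones throughout the genome, since 18.0% of the 5826 on these chromosomes overlapped a stage 9 Sox3 peak whereas 93.4% of stage 9 peaks overlapped one of stage 10.5. Their median −log10 p was 32.2, against 128 at stage 9.

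**Figure D1:**
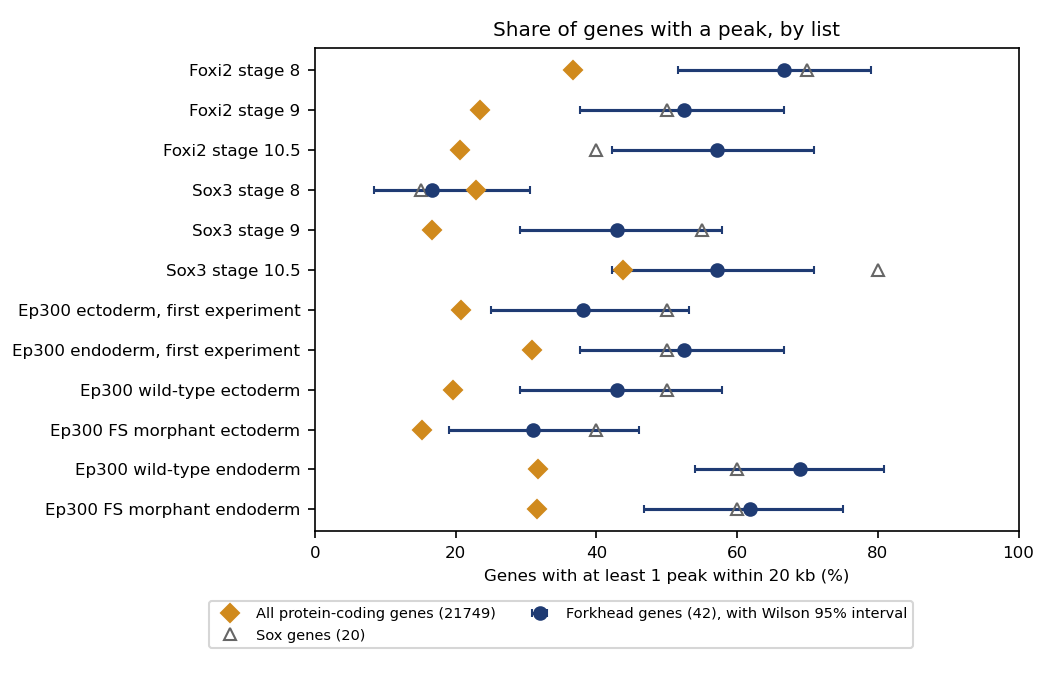
Share of genes with at least 1 peak within 20 kb, in percent, for each of the 12 peak lists. Circles are the 42 forkhead genes with the Wilson 95% interval, diamonds all 21749 genes and triangles the 20 Sox genes; the forkhead circle lies to the right of the diamond in every list except Sox3 at stage 8.

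The Sox genes, another family of developmental transcription factors (20 by the same kind of rule), gave similar shares in most lists. A Foxi2 peak lay near 14, 10 and 8 of the 20 at stages 8, 9 and 10.5, and a Sox3 peak near 3, 11 and 16. Among the peak lists of the 2 factors, the widest gap between the families was at stage 10.5 for Sox3, where 80.0% of Sox genes and 57.1% of forkhead genes had a peak, and this gap was not tested.

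Sites shared by Foxi2 and Sox3 near forkhead genes were rare at stage 8 and frequent at stage 10.5. Only 2 of 64 stage 8 Foxi2 peaks near members overlapped a Sox3 peak of that stage (3.12%, 0.861 to 10.7%; whole list 8.79%), both of these in the bounds or windows of foxp4 and foxp2, which encode transcriptional repressors. At stage 9, 24 of 45 did (53.3%, 39.1 to 67.1%; whole list 39.6%), and at stage 10.5, 41 of 49 (83.7%, 71.0 to 91.5%; whole list 79.4%). Counted by gene, a Foxi2 peak co-bound by Sox3 lay near 2 members at stage 8 (5.18% of all genes), 14 at stage 9 (33.3%, against 10.8%) and 22 at stage 10.5 (52.4%, against 17%). So all but 2 of the 24 genes with a stage 10.5 Foxi2 peak had a co-bound one. The exceptions were foxo1, a target of insulin signalling, and foxl2, an ovarian regulator. Over all genes, 3700 of the 4491 with a stage 10.5 Foxi2 peak had a co-bound one, so this was frequent beyond the family too. In the reverse direction 40 of 71 stage 10.5 Sox3 peaks near members carried Foxi2 (56.3%, 44.8 to 67.3%), against 32.8% of the whole Sox3 list.

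Foxi2 sites near members were often kept from stage to stage. Of the 64 stage 8 Foxi2 peaks, 33 overlapped a stage 9 peak (51.6%, 39.6 to 63.4%; whole list 42%) and 24 a stage 10.5 peak (37.5%, 26.7 to 49.7%; whole list 26.5%). The peaks were not confined to the genes themselves. Of the 49 at stage 10.5, 17 overlapped gene bounds, 17 lay within 5 kb outside them and 15 lay 5 to 20 kb away.

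**Figure D2:**
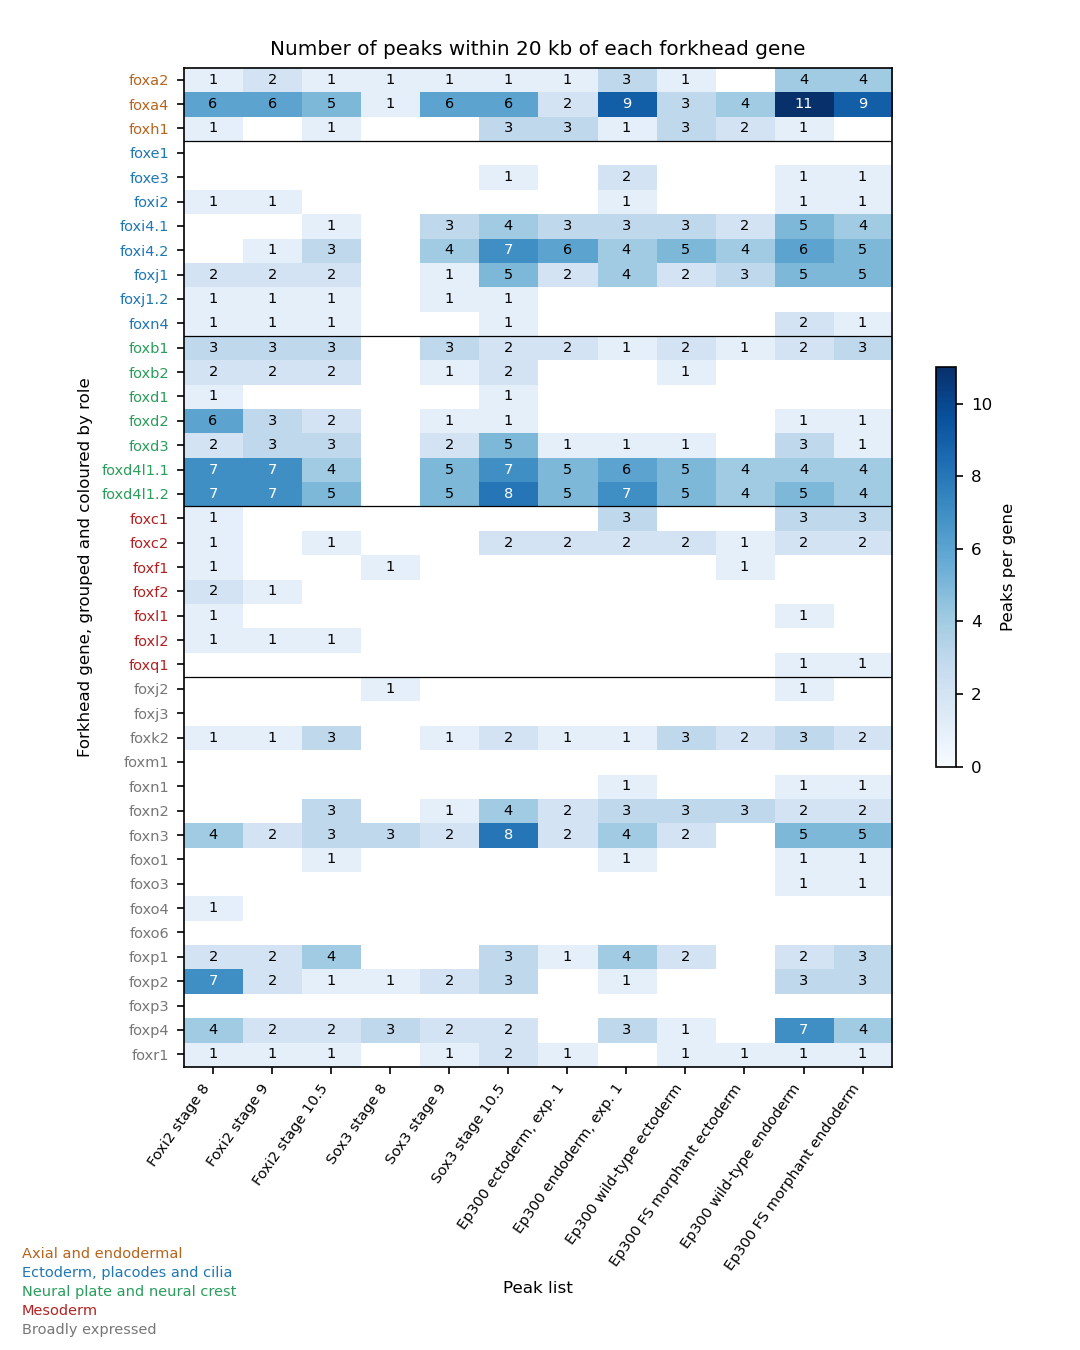
Number of peaks within 20 kb of each forkhead gene but 1 that is not shown (rows, grouped and coloured by role) in each of the 12 peak lists (columns); an empty cell is 0. The highest number, 11, is that of foxa4 in wild-type endoderm Ep300, and the rows of foxe1, foxj3, foxm1, foxo6 and foxp3 are empty throughout.

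In wild-type ectoderm of the second experiment, each forkhead gene with Ep300 had at least 1 Ep300 site that Foxi2 and Sox3 also bound. There 18 members had a wild-type ectoderm Ep300 peak (42.9%, 29.1 to 57.8%; all genes 19.6%), and each of the 18 had at least 1 that shared bases with peaks of both factors of stage 10.5. Over all genes, 10.6% had such a co-bound Ep300 peak, which is 54.3% of the genes with any ectoderm Ep300 peak. By peak, 25 of 37 ectoderm Ep300 peaks near members carried both factors (67.6%, 51.5 to 80.4%; whole list 52.4%), 9 carried Sox3 alone, none Foxi2 alone and 3 neither. Of the 25, 14 overlapped a Foxi2 peak already at stage 8 and 17 a Sox3 peak at stage 9, shares (56.0% and 68.0%) close to those of all co-bound ectoderm Ep300 peaks (61.7% and 63.3%). The first experiment, on 1 sample, gave ectoderm peaks near 16 members (38.1%, against 20.7%).

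Ranked by −log10 p, the strongest of these co-bound Ep300 peaks lay near foxi4.2 (280), foxd4l1.1 and foxd4l1.2 (209, the same peak), foxi4.1 (179), foxj1 (170), foxk2 (152), foxr1 (120), foxn2 (92.8), foxd3 (85.9) and foxa2 (70.9). The other 8 genes ranged from 69.1 at foxp4 to 24.5 at foxc2. Of these, foxi4.1 and foxi4.2 are Foxi genes, foxd4l1.1 (also foxd5) acts in early neural ectoderm, and foxj1 drives the formation of motile cilia, whereas foxk2, foxr1 and foxn2 are in the group of broad or varied expression and the neural genes foxb1 (48.7) and foxb2 (29.3) came near the end of the order.

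The endoderm Ep300 lists reached more members. In the second experiment 29 members had a wild-type endoderm Ep300 peak (69.0%, 54.0 to 80.9%), against 31.7% of all genes, and in the first experiment 22 (52.4%), against 30.8%. The endoderm list was also longer, with 11597 peaks against 5552. With the lists cut to equal length the endoderm count was 22, and the share of all genes was not computed for that cut. Ep300 of the second experiment was found in both tissues near 17 members (40.5%, against 12.1% of all genes), in endoderm alone near 12 (28.6%, against 19.6%) and in ectoderm alone near a single gene, foxb2 (2.38%, against 7.45%). Ectoderm sites near members were frequently endoderm sites as well, since 27 of the 37 ectoderm peaks overlapped an endoderm peak (73%, 57.0 to 84.6%), against 42.3% of the whole ectoderm list. Of the 76 endoderm peaks near members, 24 carried both Foxi2 and Sox3 (31.6%, 22.2 to 42.7%; whole list 20.3%). By gene, a co-bound endoderm Ep300 peak lay near 15 members, against 8.83% of all genes and 27.9% of the genes with endoderm Ep300. Foxi2 and Sox3 were mapped in whole embryos, so an overlap does not say in which tissue the factor was bound.

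A total of 6 members had Ep300 in endoderm and none in ectoderm in both experiments (14.3%, against 12.1% of all genes, a share near the background). They were foxc1, a regulator of paraxial mesoderm, foxi2 itself, foxn1, known from thymic epithelium, foxo1, foxe3, known from the lens, and foxp2. The best second-experiment −log10 p of these genes ran from 195 at foxc1 to 104 at foxp2.

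The locus of foxi2 itself was sparse. It holds the maternal gene whose protein was immunoprecipitated here (chromosome 7, 24018956 to 24022142). A single Foxi2 peak lay in its window, 16430 bp from the gene at stage 8 (−log10 p 158, fold enrichment 23.7) and 16458 bp at stage 9 (160, 29.2), and none at stage 10.5. No Sox3 peak was found there at any stage, and no Ep300 peak in ectoderm in either experiment or in FS morphants. On the side of higher coordinates, 15041 bp from the gene, wild-type endoderm had an Ep300 peak of 16.3-fold enrichment, which was 18.4-fold in FS morphant endoderm and 6.58-fold in the first experiment. H3K27ac covered 6.96% of the window in endoderm and 0% in ectoderm, and H3K27me3 covered 6.53% in endoderm and 0% in ectoderm.

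Among the axial and endodermal genes, foxa4 had more endoderm Ep300 peaks than any other member in each of the 3 endoderm lists. It is expressed in the dorsal organizer and its derivatives (chromosome 4, 38404113 to 38407632). It had 6, 6 and 5 Foxi2 peaks and 1, 6 and 6 Sox3 peaks at stages 8, 9 and 10.5. Wild-type ectoderm had 3 Ep300 peaks there, of 6.29-, 8.78- and 6.29-fold enrichment. Wild-type endoderm had 11, the strongest of 32.1-fold enrichment (−log10 p 444), 13688 bp from the gene. The sites of the ectoderm were a subset of those of the endoderm, as all 3 ectoderm peaks overlapped endoderm peaks. The 2 outer sites, about 10 and 14 kb from the gene, carried Sox3 at stages 9 and 10.5 and Foxi2 at stage 8.

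The marks around foxa4 were opposite in the 2 tissues. H3K27ac covered the whole window in endoderm (100%), as part of a region of 80954 bp called a super-enhancer (rank 166), and 0% of it in ectoderm. H3K27me3 covered 96.5% of the window in ectoderm and 22.9% in endoderm, and lay on the gene itself only in ectoderm. Covered shares of either mark may include unmarked stretches. The difference in H3K27me3, 73.6 percentage points, was the widest of the 42 members.

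The other 2 genes of this group differed from it. The foxa2 gene, which acts in the node and the endoderm, had 1 Ep300 peak in ectoderm (8.24-fold) and 4 in endoderm (up to 19.9-fold), with H3K27ac over 1.68% of the window in ectoderm and 53.0% in endoderm. H3K27me3 over foxa2 did not separate the tissues, at 71.9% and 73.3%. The foxh1 gene, whose product is the DNA-binding partner of Smad proteins in Nodal signalling and is maternally supplied, had 3 Ep300 peaks in ectoderm and 1 in endoderm, H3K27ac over 56.1% and 43.8% of its window, and H3K27me3 over 0% and 3.01%.

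**Figure D3:**
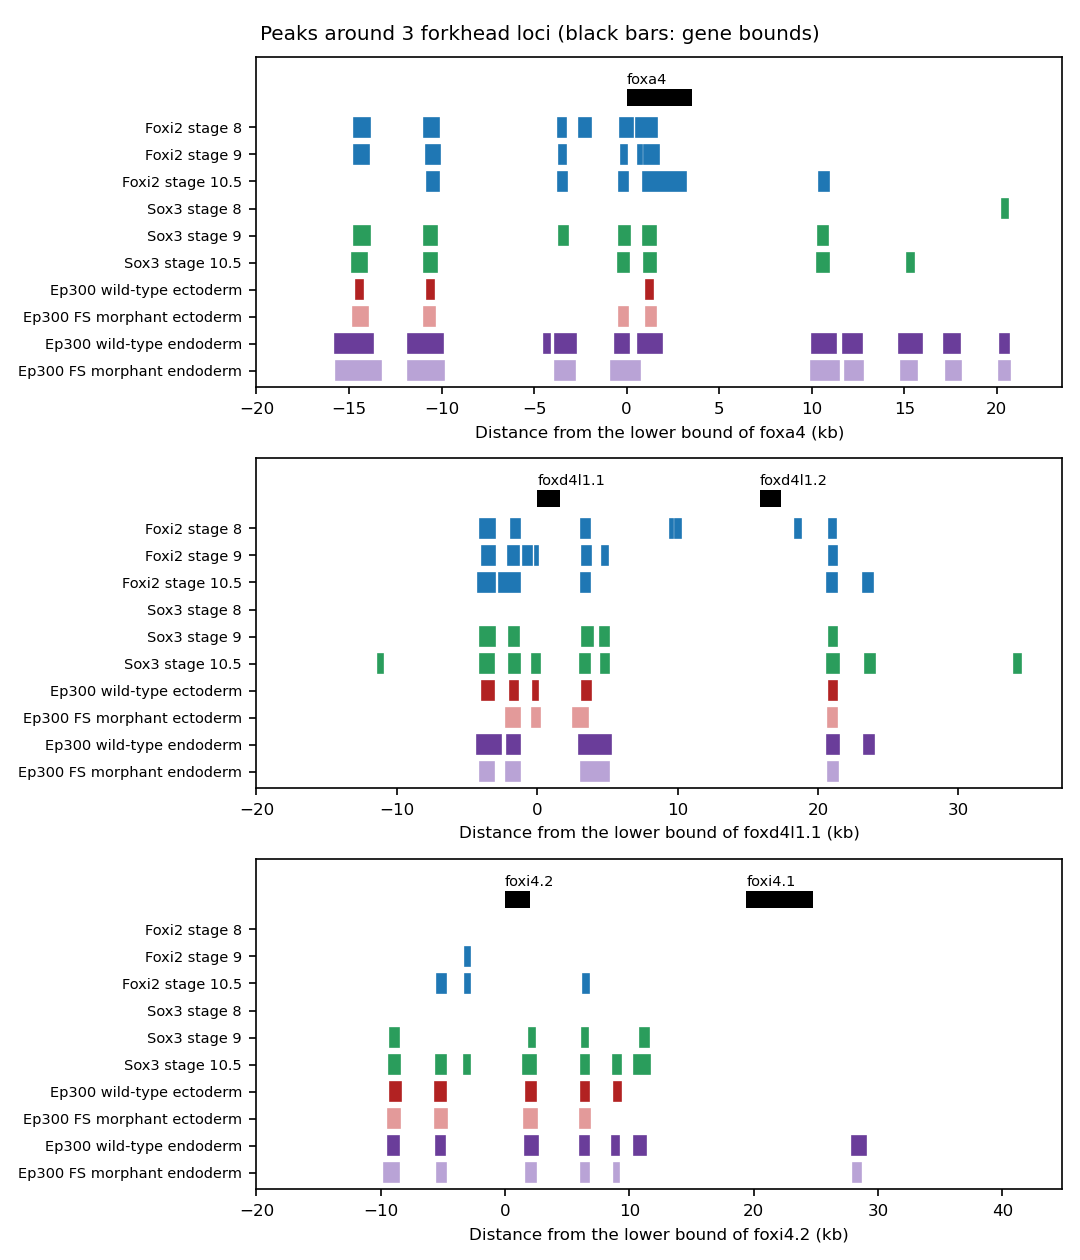
Peaks at 3 forkhead loci, drawn as bars by distance in kb from the lower bound of foxa4, foxd4l1.1 and foxi4.2, with 1 row for each of 10 lists and black bars for gene bounds. At foxa4 the endoderm row has 11 peaks and the ectoderm row 3, at foxd4l1 the same clusters recur in Foxi2, Sox3 and Ep300 rows, and at foxi4 the stage 8 rows are empty.

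Of the 9 ectoderm, placode and cilia genes, 3 had ectoderm Ep300 (all genes 19.6%): foxi4.1, foxi4.2 and foxj1. Around foxi4.2, 5 wild-type ectoderm peaks ranged from 7.87- to 22.0-fold enrichment, and the 3 nearest to foxi4.1 are shared with it. At the site 4.8 kb from foxi4.2, Ep300 was 22.0-fold enriched in ectoderm and 6.16-fold in endoderm, and at the one 8.4 kb away it was 16.7-fold and 6.14-fold. At the site about 4.1 kb away the endoderm value was the higher, 20.2-fold against 15.8-fold. No Foxi2 or Sox3 peak was found near either gene at stage 8. Sox3 came at stage 9 (4 peaks near foxi4.2, the best with −log10 p 310), and Foxi2 had 1 weak peak at stage 9 (51.6) and 3 at stage 10.5 (best 314). Both genes lay inside a super-enhancer in both tissues, of 115406 bp and rank 147 in ectoderm and of 53285 bp and rank 603 in endoderm.

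The foxj1 gene had a peak about 7.8 kb away bound by Foxi2 at all stages (−log10 p 113, 125 and 337) and by Sox3 at stages 9 and 10.5 (182 and 344), with Ep300 of 17.7-fold enrichment in ectoderm and 15.6-fold in endoderm. Its window was covered by H3K27ac in full in ectoderm and over 62.8% in endoderm, and by H3K27me3 over 0% and 0.678%. Its relative foxj1.2 had the 2 factors at 1 site (Foxi2 349, Sox3 356 at stage 10.5, about 16.6 kb away) and no Ep300 in any list. In this group foxe1, a thyroid regulator, was the only member with no peak or region in any of the 16 lists, as were 404 of all genes (1.86%).

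Among the neural genes, the 2 foxd4l1 genes had the most Foxi2 peaks at each stage. The foxd4l1.1 and foxd4l1.2 pair had 7 Foxi2 peaks within 20 kb of each gene at stages 8 and 9 (best 324 and 292), and 4 and 5 at stage 10.5. No Sox3 was there at stage 8, 5 peaks for each at stage 9, and 7 and 8 at stage 10.5. Ectoderm Ep300 had 5 peaks across the pair, from 7.08- to 19.9-fold enrichment, and 4 of the 5 overlapped endoderm peaks. No H3K27ac region lay in either window in ectoderm. In endoderm H3K27ac covered 30.4% of the window of foxd4l1.1 and 63.2% of that of foxd4l1.2.

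The other neural genes had fewer sites. Of all 7 neural genes, the foxd4l1 pair included, 6 had Foxi2 at stage 10.5 (all genes 20.6%) and 7 had Sox3 (all genes 43.8%). Ectoderm Ep300 was near 5 of the 7 (all genes 19.6%). The neural crest gene foxd3 had 1 ectoderm Ep300 peak (11.2-fold, 9673 bp away), at which Foxi2 (404) and Sox3 (315) also had their best peaks of stage 10.5. The foxd2 gene had 6, 3 and 2 Foxi2 peaks over the 3 stages and no ectoderm Ep300. Only Foxi2 at stage 8 and Sox3 at stage 10.5 had a peak near the forebrain gene foxd1.

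The 7 genes grouped as mesoderm also hold foxl2 and foxq1. Of the 7, foxc2 was the only one with a stage 10.5 Sox3 peak (all genes 43.8%) or with ectoderm Ep300 (all genes 19.6%). Foxi2 at stage 10.5 was near 2 of them, foxc2 and foxl2 (all genes 20.6%), and endoderm Ep300 near 4, foxc1, foxc2, foxl1 and foxq1 (all genes 31.7%). The 3 endoderm peaks at foxc1 were of 9.15-, 15.8- and 12.1-fold enrichment and carried neither factor. At stage 8 Foxi2 was near 6 of the 7 (all genes 36.7%). Its −log10 p there ran from 39.2 at foxf1 to 368 at foxl2, the highest of all members at that stage.

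The 16 genes of broad or varied expression, a group that also holds foxn1 and foxp3 (regulatory T cells), fell into bound and unbound genes. Ectoderm Ep300 was near 6 (foxk2, foxn2, foxn3, foxp1, foxp4 and foxr1; all genes 19.6%) and endoderm Ep300 near 11 (all genes 31.7%). The strongest endoderm site was inside foxp4 (28.7-fold, −log10 p 378), a site bound by Foxi2 at stages 8, 9 and 10.5 (246, 275 and 351) and by Sox3 at stages 9 and 10.5 (248 and 326), where ectoderm Ep300 was 7.72-fold. No peak of any list lay near foxj3, foxm1 (a cell cycle regulator), foxo6 or foxp3.

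The FS morphant lists ask which of these Ep300 sites remained when Foxi2 and Sox3 were lowered. In ectoderm, 23 of the 37 wild-type peaks near members had an overlapping peak in FS morphants (62.2%, 46.1 to 75.9%), against 44.1% of the whole list. In endoderm 63 of 76 did (82.9%, 72.9 to 89.7%), against 83.5%. Among ectoderm peaks with both factors, 14 of 25 were kept near members (56.0%, 37.1 to 73.3%) and 40.2% in the whole list, and among those without both, 9 of 12 (75%, 46.8 to 91.1%) and 48.5%. The FS morphant ectoderm list is the shorter one, with 3593 peaks against 5552. By gene, ectoderm Ep300 was near 18 members in wild type and 13 in FS morphants (31.0%, against 15.2% of all genes), and endoderm Ep300 near 29 and 26 (61.9%, against 31.5%).

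No wild-type ectoderm peak was kept near 6 of the 18 members, a share of 33.3%, against 43.8% of all genes with such a peak. These were foxd3 (wild-type −log10 p 85.9), foxa2 (70.9), foxp4 (69.1), foxp1 (67.6), foxn3 (58.8) and foxb2 (29.3). Each of them had 1 or 2 wild-type ectoderm peaks, and all the peaks but 2 carried both factors. At foxa2, foxp4, foxd3 and foxn3 the same site was kept in endoderm, where it was 18.9-, 28.4-, 10.3- and 10.7-fold enriched in FS morphants. In endoderm no peak was kept near 2 of 29 members, foxh1 and foxj2 (6.90%, against 11.4%), each of which had a single wild-type peak (7.59- and 6.49-fold). The foxl1 gene also left the FS morphant endoderm count. Its wild-type peak, 19825 bp away, was kept, but the overlapping FS morphant peak lay outside its window.

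Strong peaks were lost as well as weak ones. At foxd4l1 the peak 3109 bp from the gene (16.1-fold, −log10 p 143) was not in the FS morphant list, while its neighbour at 1347 bp was, at 25.8-fold against 19.9-fold in wild type. At foxk2 the peak 18777 bp away (16.4-fold, 152) was not in the list, and 2 weaker ones were. At foxi4.2, 4 of 5 peaks were kept.

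Where ectoderm peaks were kept near members, their fold enrichment in FS morphants was mostly the higher one. It exceeded the wild-type value at 19 of 23 kept peaks (82.6%, 62.9 to 93%), with a median ratio of 1.24. In the whole list it did so at 56.9% of 2449 kept peaks, with a median of 1.06. By class, the medians near members were 1.22 with both factors and 1.45 without both, against 0.937 and 1.15 in the whole list. Several kept peaks share a locus (foxi4, foxd4l1, foxa4 and foxn2 among others), so they are not independent, which the interval does not cover. The widest ratios were those of foxa4, where the outer peaks went from 6.29- to 20.3-fold and from 8.78- to 20.7-fold, the latter peak carrying both factors, and where the third went from 6.29- to 7.70-fold. A further foxa4 peak (7.26-fold), at the bound of the gene, was in the FS morphant list alone. In endoderm the outer foxa4 sites had 32.1- and 25.1-fold enrichment in wild type and 33.9- and 26.9-fold in FS morphants. Over all endoderm peaks kept near members, 36 of 63 were higher in FS morphants, with a median ratio of 1.03. In all, 3 of the 26 FS morphant ectoderm peaks near members were not in the wild-type list, against 1150 of 3589 in the whole list. Besides the foxa4 peak, those near members were at foxj1 (7.81-fold) and near foxf1, a regulator of visceral mesoderm (12.9-fold). The one near foxf1 was the only Ep300 peak there in any list. The fold enrichment comes from 1 list per group, and its spread between replicates is not known.

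**Figure D4:**
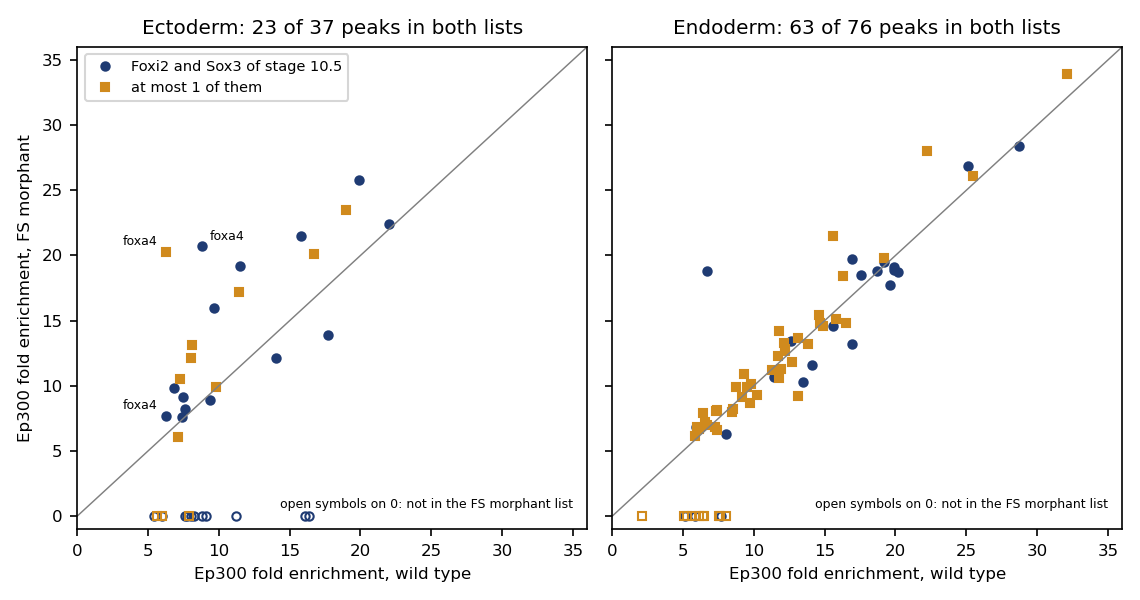
Ep300 fold enrichment over input at each wild-type peak near a forkhead gene, in wild type (horizontal) and FS morphants (vertical), for ectoderm and endoderm, with the line of equal values. Filled symbols are the 23 of 37 ectoderm and 63 of 76 endoderm peaks in both lists, and open symbols on 0 those not in the FS morphant list; most kept ectoderm peaks lie above the line, and the endoderm peaks lie close to it, except 1 at foxa4 whose morphant peak also spans its stronger neighbour.

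Within 20 kb, H3K27ac regions lay near more members in endoderm than in ectoderm. An H3K27ac region lay in the window of 25 members in ectoderm (59.5%, 44.5 to 73%), against 76.5% of all genes, and of 34 in endoderm (81.0%, 66.7 to 90.0%), against 73.6%. Among genes of at most 10 kb the shares were 69.3% and 65.8%, the first inside the members' interval. On the gene itself, ectoderm H3K27ac was at 40.5% of members, 53.2% of all genes and 39.5% of those short genes. With 50 kb on each side the members' counts were 38 in ectoderm and 39 in endoderm, and the shares of all genes were not computed at that width. Of the 20 Sox genes, 17 had an H3K27ac region within 20 kb in each tissue (85%). The ectoderm share of the forkhead genes at 20 kb was thus below that of the Sox genes as well, a difference that was not tested. A total of 9 members had H3K27ac in endoderm and not in ectoderm (21.4%, against 7.51%): foxa4, foxb1, foxc1, foxd4l1.1, foxd4l1.2, foxi2, foxn1, foxo1 and foxq1. None had it in ectoderm and not in endoderm, against 10.4% of all genes. Regions were stitched across gaps by the authors, so that the covered share includes unmarked stretches. The covered share was over 10 points higher in endoderm for 11 members (26.2%, against 11.8%) and over 10 points higher in ectoderm for 5 (11.9%, against 24.9%), the latter being foxi4.2, foxj1, foxr1, foxn4 and foxh1. More than 50% of the window was covered in ectoderm at 6 members (14.3%, against 13.5%) and in endoderm at 7 (16.7%, against 8.32%).

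Super-enhancers, the highest-ranked stitched H3K27ac regions, reached few members. The endoderm table heads the signal behind its ranks with the ectoderm library, and which library gave that signal is not known for certain. At the 469 regions that the 2 tables share over at least 95% of both widths, the signal per base in the endoderm table was 0.819 to 1.09 times that in the ectoderm table (quartiles), and 43 of its 670 super-enhancers, that of foxa4 among them, overlapped no ectoderm region. The endoderm ranks and calls below carry this doubt. In ectoderm 7 genes had one in their window (16.7%, against 15.7%), namely foxn2 (rank 103), foxi4.1 and foxi4.2 (147), foxj1 (415), foxr1 (573), foxk2 (673) and foxc2 (710, 15920 bp from the gene). In endoderm 8 did (19.0%, against 8.13%): foxn2 (113), foxl1 (136, 16047 bp away), foxa4 (166), foxp1 (387), foxc2 (552), foxi4.1 and foxi4.2 (603) and foxk2 (642). Those of foxa4, foxp1 and foxl1 were called in endoderm alone and those of foxj1 and foxr1 in ectoderm alone. The regions at foxn2 were of nearly the same width in both tissues, 101135 bp and 101441 bp. The members' share in ectoderm was close to that of all genes.

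H3K27me3 was present in most windows, as it was for most genes. At least 1 region was near 37 members in ectoderm (88.1%, against 88%) and 38 in endoderm (90.5%, against 85.1%), and on the gene itself at 26 (61.9%, against 50.5%) and 23 (54.8%, against 46.9%). The on-gene shares were 25.9% and 23.2% among genes of at most 10 kb, and 70% of Sox genes in each tissue. Wide coverage was more frequent in the family than over all genes, and as frequent in the Sox genes. Whether these regions were stitched like those of H3K27ac is not known, so their covered share may include unmarked stretches. More than 50% of the window carried H3K27me3 at 10 members in ectoderm (23.8%, against 6%) and 11 in endoderm (26.2%, against 5.07%), and at 5 of the 20 Sox genes in each tissue (25%). Regions above the ranking cutoff lay near 13 members in ectoderm (31.0%, 19.1 to 46.0%), against 1.86% of all genes and 6 of the 20 Sox genes (30%), and near 3 in endoderm (7.14%, 2.46 to 19.0%), against 1.2% and no Sox gene. The cutoff was set in each tissue and kept 242 regions in ectoderm and 126 in endoderm, and the ectoderm regions had counterparts: at the 10 genes called in ectoderm alone the best endoderm rank was between 136 (foxf1) and 531 (foxc2 and foxl1). The 13 genes with such a region in ectoderm included foxa2, foxb1, foxc1, foxc2, foxd1, foxd2, foxd3, foxe3, foxf1, foxf2, foxl1 and foxl2. These 13 hold 6 of the 7 genes grouped as mesoderm and 4 of the 7 neural genes, and none of the 16 genes of broad or varied expression.

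H3K27me3 was alike in both tissues at most of these genes. At foxf1, foxd2, foxa2, foxb1, foxf2 and foxd3 the covered share differed by less than 3 points between ectoderm and endoderm, the values of foxf1 being 93.8% and 94.2%. It was over 10 points higher in ectoderm at 7 members (16.7%, against 16.3%), led by foxa4 (96.5% and 22.9%) and foxd4l1.2 (28.9% and 1.63%), and over 10 points higher in endoderm at 2 (4.76%, against 9.96%), foxl1 (17.8% in ectoderm, 62.1% in endoderm) and foxc1 (42.5% and 71.8%). At foxc1, Ep300 and H3K27ac (4.68% of the window) were called in endoderm alone, so the tissue with more H3K27me3 was also the one with Ep300. Whether the 2 lie in the same cells cannot be told apart in dissected tissue.

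**Figure D5:**
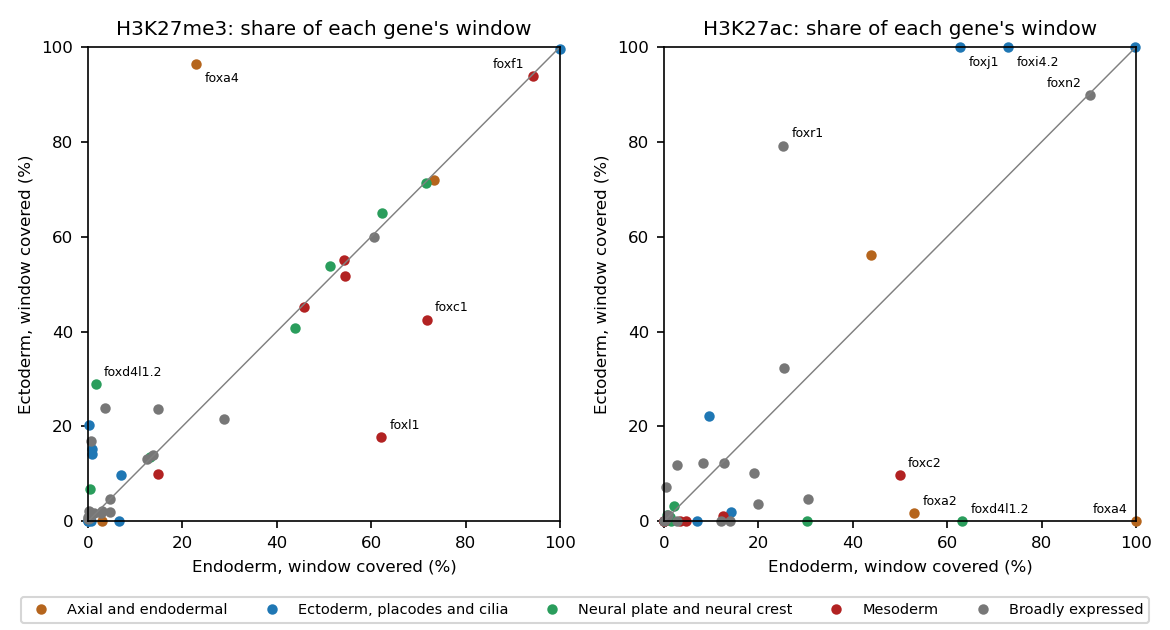
Share of each forkhead gene's window, in percent, covered by H3K27me3 (left) and H3K27ac (right) in endoderm (horizontal) and ectoderm (vertical), with points coloured by role and the line of equal shares. Most H3K27me3 points lie on the line, foxa4 far above it and foxc1 and foxl1 below, and in the right panel foxa4, foxd4l1.2 and foxa2 lie near the horizontal axis.

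Some members had Ep300 but no H3K27ac region in the same tissue. Of the 18 members with an ectoderm Ep300 peak, 4 had no ectoderm H3K27ac region in their window (foxa4, foxb1, foxd4l1.1 and foxd4l1.2, at 3 loci), against 3.1% of all genes with ectoderm Ep300. All 4 had endoderm H3K27ac (all genes 73.6%) and ectoderm H3K27me3 (all genes 88%). This H3K27me3 covered 96.5%, 64.9%, 13.5% and 28.9% of their windows. The best co-bound ectoderm Ep300 peak of the foxd4l1 pair was strong (−log10 p 209), and those of foxa4 (55.7) and foxb1 (48.7) lay below the median of all co-bound ectoderm peaks (85.2). In endoderm, 2 of 29 members had Ep300 without H3K27ac, foxe3 and foxd2, against 9.89% of all genes with endoderm Ep300.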

How the data were processed

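The data come from 31 samples in 19 groups, 16 of which have a deposited list and 3 of which are inputs. The authors aligned reads with Bowtie 2 (version 2.2.7 in the submitters' processing notes) to X. tropicalis v10.0 and removed duplicates. Peaks were called with MACS2 against input, and replicates of narrow peaks were combined by IDR at 0.05. Each list from 2 samples holds them pooled, while the first-experiment Ep300 lists and the H3K27ac lists come from 1 sample each. The deposited peak lists hold the fold enrichment over input (a ratio) and the −log10 p of each peak. The deposited H3K27ac lists hold stitched regions (gaps up to 12 kb) with the signal and rank that ROSE gave them. The H3K27me3 lists hold a rank score, and whether their regions were stitched is not known. The endoderm H3K27ac table has a header that names the ectoderm library. Its signal values were set beside those of the ectoderm table only as a check of that header, at the 469 shared regions. The endoderm ranks and super-enhancer calls, which are used, were made from those signal values. The labels name an anti-VegT antibody in the extraction text of all samples, and the titles were followed. Read depth is unknown, since no list holds counts.

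Gene bounds came from the RefSeq table of the same assembly (UCB_Xtro_10.0). Overlaps (at least 1 bp with a window of 20 kb each side) and shares were computed with Python 3.11.15, pandas 2.3.3 and numpy 2.4.6, and Wilson 95% intervals with statsmodels 0.14.6. The overlap search was tested on simulated intervals. All 42 members matched by symbol. All 42 enter every count, and the values of 1 of them are not reported here. The members, role lists and alternatives were chosen with earlier results of these data known. The naming rule took foxi2, then members with a co-bound ectoderm Ep300 peak, with Ep300 in endoderm and not ectoderm in both experiments, with no ectoderm peak kept in FS morphants, in a super-enhancer, or in no list, with at most 10 named per set by −log10 p or rank. Other members were named after their values were seen, including those described by H3K27me3. A planned search for forkhead and Sox motifs in the members' promoters was not run because the reference used here gives no sequence. Alternatives were windows of 0, 5 and 50 kb, summits, stronger peaks, lists of equal length, a 50% overlap, the first Ep300 experiment, separate loci, stricter symbols and genes of at most 10 kb as background.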

Additional observations from a re-analysis of the deposited data

How the results depend on the processing

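A total of 98 values for members or their peaks were computed under an alternative. Of these, 85 stayed within 1.5 times the reported count or within the interval of the reported share. None of the loci counted once, summit, stricter-symbol, 50% overlap or first-experiment values left that range. The 42 genes make up 38 loci, so most counts of loci could not have left it. The 98 do not include the shares of all genes with genes of at most 10 kb as background. Nearly all of those shares moved, most to a lower value. The members' share stayed on the same side of most of them. With a window of 5 kb, 16 members had Foxi2 at stage 8, 3 had Sox3 at stage 8 and 11 had Sox3 at stage 9. With 50 kb, 12 had Sox3 at stage 8, and 38 had H3K27ac in ectoderm and 39 in endoderm, so the tissues then hardly differed. With the stronger 50% of each list, 18 had Foxi2 and 4 had Sox3 at stage 8, 0% of stage 8 Foxi2 peaks near members were co-bound, and 93.3% of endoderm Ep300 peaks were kept in FS morphants. With the 3 Foxi2 lists at equal length, 18 members had Foxi2 at stage 8, 20 at stage 9 and 24 at stage 10.5, so that stage 8 was the lowest. The shares of all genes were not computed for windows of 5 and 50 kb or for shortened lists, so those member counts have no background. On the genes themselves (0 kb) 23 had endoderm H3K27me3, and with only regions above the cutoff 13 had H3K27me3 in ectoderm and 3 in endoderm. Against genes of at most 10 kb as background, the Sox3 stage 8 share of all genes was 16.1% and that of ectoderm super-enhancers 16.7%, beside the members' share of 16.7% in both. For ectoderm H3K27ac it was 69.3% within 20 kb, beside 59.5% of members, and 39.5% on the gene itself, beside 40.5%. No paired analysis was possible because each group has 1 list. The motif search was not run.

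Depth is unknown, peaks below the authors' thresholds are not listed, and absence from a list does not show absence of binding. Stage 8 values rest on 2 lists, 1 of which (Sox3) stood apart. Neighbouring members share peaks. Dissected ectoderm and endoderm are mixtures of cells, whose composition was not tested.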

Other observations

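Strong binding of the factors near members did not always come with Ep300. A second site inside foxp4, apart from the one with Ep300, carried Foxi2 at stages 8, 9 and 10.5 (−log10 p 351, 407 and 387) and Sox3 at stages 9 and 10.5 (255 and 195), and no Ep300 peak of any list overlapped it. H3K27me3 covered 60.0% of the foxp4 window in ectoderm and 60.5% in endoderm. At foxr1, by contrast, a site about 7.8 kb from the gene had Ep300, of 14-fold enrichment in ectoderm and 8.01-fold in endoderm. It carried Foxi2 at all 3 stages (195, 210 and 360) and Sox3 at stages 9 and 10.5. At foxb2, the only member with Ep300 in ectoderm alone in the second experiment, a site about 6.8 kb from the gene carried Foxi2 (208, 201 and 353) and Sox3 at stages 9 and 10.5 (268 and 402). Yet its Ep300 peak was among the weakest (5.99-fold) and was not in the FS morphant list. The first experiment had no Ep300 peak near foxb2 in either tissue.

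At foxl2, Foxi2 had its strongest forkhead site of stage 8 (−log10 p 368) and a like one at stage 9 (362), about 1.1 kb from the gene. At stage 10.5 the only Foxi2 peak in the window was 8490 bp away (169). No Sox3, Ep300 or H3K27ac was near foxl2 in any list, and H3K27me3 covered 45.1% of its window in ectoderm and 45.8% in endoderm.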
